A study of Mus musculus with 39 samples.

Results

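Brain RNA of mice given 1/2 LD50 of soman was compared with that of mice given 1/5 LD50, both sampled at day 7. The 6 libraries, 3 per dose, were chosen by their dose and day labels and belong to a series of 39 libraries in 13 groups. Soman, a nerve agent of the organophosphate class, inactivates acetylcholinesterase, and the LD50 is its median lethal dose. It was injected under the skin, and both doses also stand beside 1/10 LD50 at day 7 and a saline group, with 3 libraries each. The labels call the samples of a group biological replicates of whole brain from mice kept on a light-dark cycle. Strain, sex, age, the hour of sampling, the day of the saline brains and whether soman was given once or daily are not given in the sources used here. The day 1, 3 and 14 groups at 1/2 and 1/5 LD50, again 3 libraries each, served to ask whether the dose difference was particular to day 7.

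Of the 17 genes that passed the test between the doses, 9 are on a list of genes of the unfolded protein response. Proteins that are secreted or sit in membranes fold in the endoplasmic reticulum, with help from chaperones such as Hspa5 (BiP), from lectin chaperones such as calreticulin and from disulfide isomerases. When unfolded proteins build up there, sensors in the membrane activate the transcription factors Atf6, spliced Xbp1 and Atf4, which raise the genes for these helpers. Nerve and glial cells use the same machinery, and its transcripts are a common readout of folding load.

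One library stood apart before any comparison. Replicate 1 of 1/2 LD50 nearly lacked transcripts of the cerebellum. Pcp2, a marker of Purkinje cells, was at 0.261, 52.2 and 46.1 FPKM (a level scaled to transcript length and to the reads of the library) in replicates 1, 2 and 3 of 1/2 LD50, and at 79.4, 45.5 and 112.6 FPKM in those of 1/5 LD50. Gabra6, a receptor subunit of granule cells, was at 0.0247, 26.8 and 26.0 FPKM at 1/2 LD50, against 37.2, 18.5 and 39.7 FPKM at 1/5 LD50. The same near absence was seen at day 3 in replicate 2 of both lower doses, so that 3 of 39 libraries had Pcp2 below 1 FPKM, while the lowest of the others was at 45.5 FPKM. Over the 21 cerebellar genes of a marker list, all tested, the summed FPKM was 511.3, 819.9 and 755.8 at 1/2 LD50 and 951.7, 703.2 and 1126 at 1/5 LD50. It was 1050 to 1150 FPKM in saline, a range that only replicate 3 of 1/5 LD50 reached. In whole tissue, fewer cells of a type and less RNA per cell cannot be told apart. Results are therefore given with and without that replicate where it touches them.

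**Figure D1:**
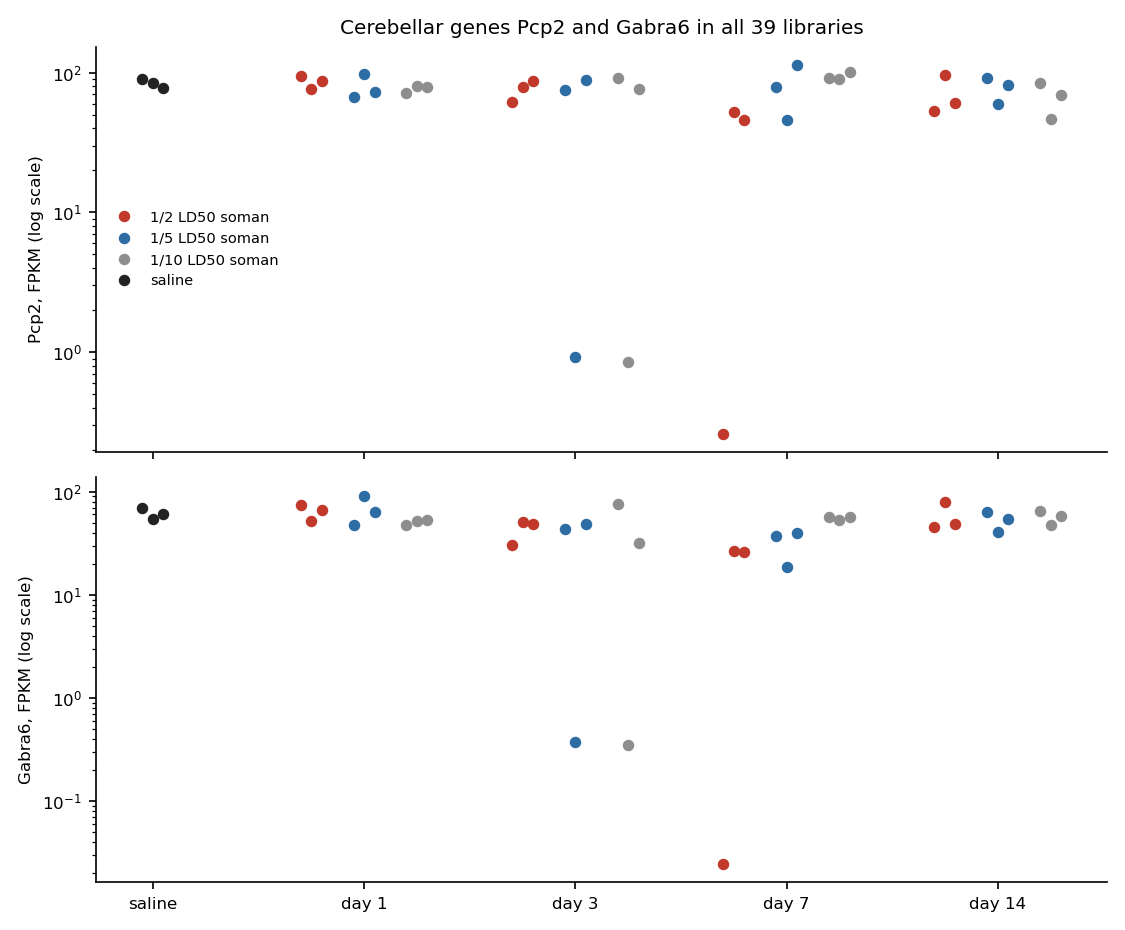
Levels of the cerebellar genes Pcp2 (top) and Gabra6 (bottom) in each of the 39 libraries, in FPKM on a log axis, by day and dose, with saline at the left. Each point is a library. Replicate 1 of 1/2 LD50 at day 7 and 1 library each of 1/5 and 1/10 LD50 at day 3 lie below 1 FPKM in both panels.

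The 6 libraries had similar totals. Their FPKM summed to 318364 to 336544 at 1/2 LD50 and 320494 to 337606 at 1/5 LD50, and 27899 to 29662 and 26442 to 28810 genes were above 0, against 25731 to 26001 in saline. Transcripts of the mitochondrial genome took 10.1% to 11.5% of the FPKM at 1/2 LD50 and 8.78% to 10.1% at 1/5 LD50, a higher share at 1/2 LD50 with ranges that touch but do not overlap, and whose part in the results was not tested. Genes of neurons (Snap25, 618.8 to 765.3 FPKM), astrocytes (Aqp4, 21.9 to 38.9 FPKM), oligodendrocytes (Mbp, 1227 to 2170 FPKM) and microglia (Cx3cr1, 6.57 to 9.67 FPKM) were present in all 6, as the brain label calls for. Correlations of log values between libraries were 0.983 to 0.989 within 1/2 LD50, 0.988 to 0.990 within 1/5 LD50 and 0.981 to 0.991 between the doses, so that libraries of different doses were about as alike as those of 1 dose. Summed markers varied more, and overlapped between the doses, with 366.4 to 671.6 FPKM at 1/2 LD50 and 331.1 to 690.6 FPKM at 1/5 LD50 for the choroid plexus. The sums were 33.9 to 43.02 and 25.5 to 59.7 FPKM for ependymal cilia and 3100 to 4984 and 3987 to 4343 FPKM for oligodendrocytes and myelin. Their part in the results was not tested.

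Few genes separated the doses. Of 14701 tested genes, 17 passed the limma test at a Benjamini-Hochberg adjusted p below 0.05 (0.116%), of which 2 rose (0.0136%) and 15 fell (0.102%) at 1/2 relative to 1/5 LD50. Among the 15 that fell, 9 belong to a list of chaperones and stress genes of the endoplasmic reticulum. The others that fell were Per2, P4ha1, Zc3h11a, Zbtb40, Dok3 and Insl5, and those that rose were Hecw2 and Pak5. At an unadjusted p below 0.05 stood 1354 genes (9.21%), 874 of them lower at 1/2 LD50 (5.95%). Differences are given as log2 of FPKM + 1, 1/2 minus 1/5 LD50, with the standard error, and their median over all tested genes was -0.03.

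**Figure D2:**
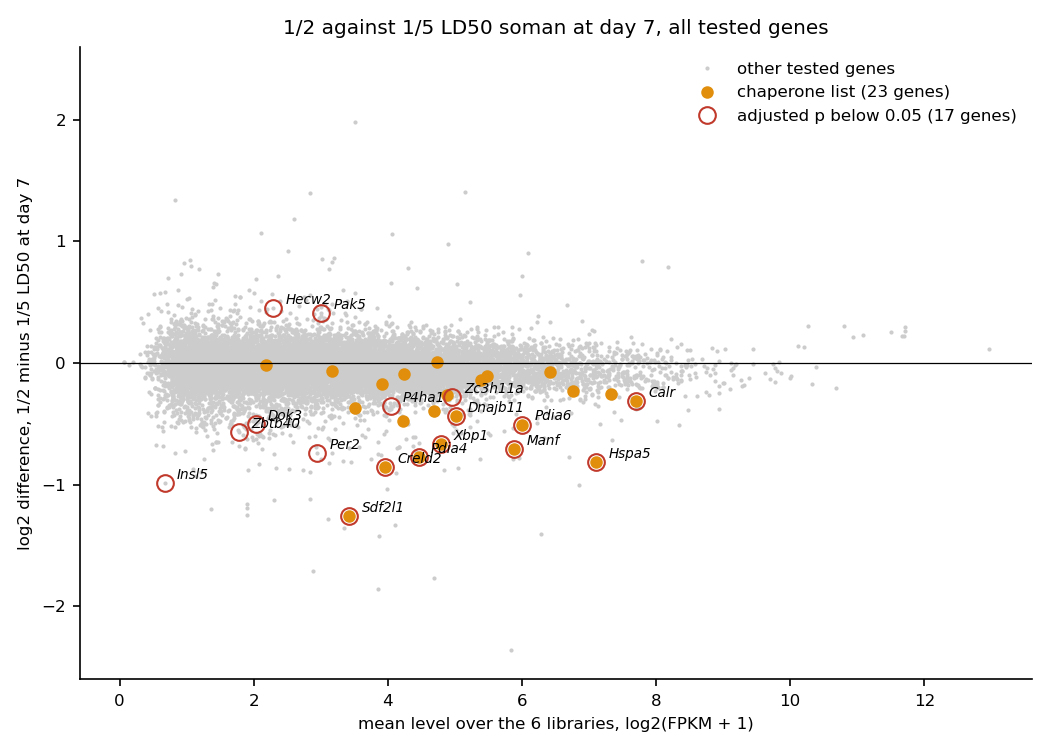
Log2 difference between 1/2 and 1/5 LD50 at day 7 (1/2 minus 1/5, y axis) against the mean level over the 6 libraries (log2 of FPKM + 1, x axis) for the 14701 tested genes. Filled orange points are the 23 tested genes of the chaperone list and red rings the 17 genes past the threshold. All but 1 of the orange points lie below 0, and 9 of them are ringed.

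The endoplasmic reticulum chaperone Hspa5 was markedly lower at the higher dose. Its level was 103.0, 93.5 and 99.6 FPKM in the 3 libraries of 1/2 LD50 and 185.2, 184.5 and 155.2 FPKM in those of 1/5 LD50. All libraries of 1/2 LD50 lay far below all of 1/5 LD50, and the mean was 56.4% of that at 1/5 LD50 (98.7 ± 4.81 against 174.9 ± 17.1 FPKM, SD, n = 3 each). The log2 difference was -0.82 ± 0.13 (SE, limma adjusted p = 0.00133). A pair of proteins that work with Hspa5 fell as well. Sdf2l1, which forms complexes with the co-chaperones of Hspa5, stood at 5.85, 4.67 and 5.46 FPKM at 1/2 LD50 and at 15.7, 13.6 and 13.1 FPKM at 1/5 LD50. Its mean was 37.7% of that at 1/5 LD50, and on the scale of FPKM + 1 it had the largest log2 difference of the 17 called genes, -1.26 ± 0.21 (limma adjusted p = 0.00254). In percent Insl5, a low gene, fell further, to 5.47% of its mean at 1/5 LD50. Dnajb11 (ERdj3), a co-chaperone that hands unfolded proteins to Hspa5, stood at 28.4, 24.1 and 26.5 FPKM at 1/2 LD50 and 38.8, 34.4 and 35.0 FPKM at 1/5 LD50. Again the groups did not overlap, with a smaller log2 difference of -0.44 ± 0.08 (limma adjusted p = 0.0168).

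The disulfide isomerases Pdia4 and Pdia6 and the lectin chaperone calreticulin also fell, while the isomerases Pdia3 (limma adjusted p = 0.253) and P4hb (0.581) and the oxidase Ero1b (0.987) did not pass. Pdia4, a disulfide isomerase, had the smallest p of all tested genes, with 15.5, 14.1 and 16.0 FPKM at 1/2 LD50, against 27.4, 29.0 and 23.8 FPKM at 1/5 LD50. Its log2 difference was -0.77 ± 0.10 (limma adjusted p = 0.000493). Pdia6, another isomerase, stood at 58.5, 49.2 and 47.6 FPKM at 1/2 LD50 and 80.8, 74.5 and 66.4 FPKM at 1/5 LD50. The groups were closer here, with replicate 1 of 1/2 LD50 the highest of its dose, and the log2 difference was -0.51 ± 0.10 (limma adjusted p = 0.0348). Pdia6 shares exonic sequence with Atp6v1c2 on the opposite strand in GENCODE vM21, and the counting is not stated to use strand. Calr, which encodes calreticulin, the calcium-binding chaperone of glycoproteins, was at 199.4, 176.8 and 176.1 FPKM at 1/2 LD50, against 235.2, 218.2 and 231.2 FPKM at 1/5 LD50. Its log2 difference of -0.31 ± 0.06 was the smallest of the 9 (limma adjusted p = 0.0335).

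Secreted and regulatory members fell too. Manf, a neurotrophic factor kept in the endoplasmic reticulum and released under stress, was at 45.8, 42.1 and 43.6 FPKM at 1/2 LD50 and 72.6, 77.5 and 67.0 FPKM at 1/5 LD50. The log2 difference was -0.71 ± 0.10 (limma adjusted p = 0.000741), and Manf overlaps exons of Rbm15b and, on the other strand, Dcaf1. Creld2, a stress-induced protein with EGF-like domains, was at 10.4, 9.15 and 10.5 FPKM at 1/2 LD50 and 19.7, 20.3 and 17.01 FPKM at 1/5 LD50. Its mean was 52.8% of that at 1/5 LD50, a log2 difference of -0.86 ± 0.13 (limma adjusted p = 0.000741). Xbp1, a transcription factor of the response, was at 20.4, 19.8 and 20.9 FPKM at 1/2 LD50 and 32.2, 36.7 and 30.1 FPKM at 1/5 LD50. Its log2 difference was -0.67 ± 0.11 (limma adjusted p = 0.00254). The FPKM cannot tell spliced from unspliced Xbp1 transcripts.

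**Figure D3:**
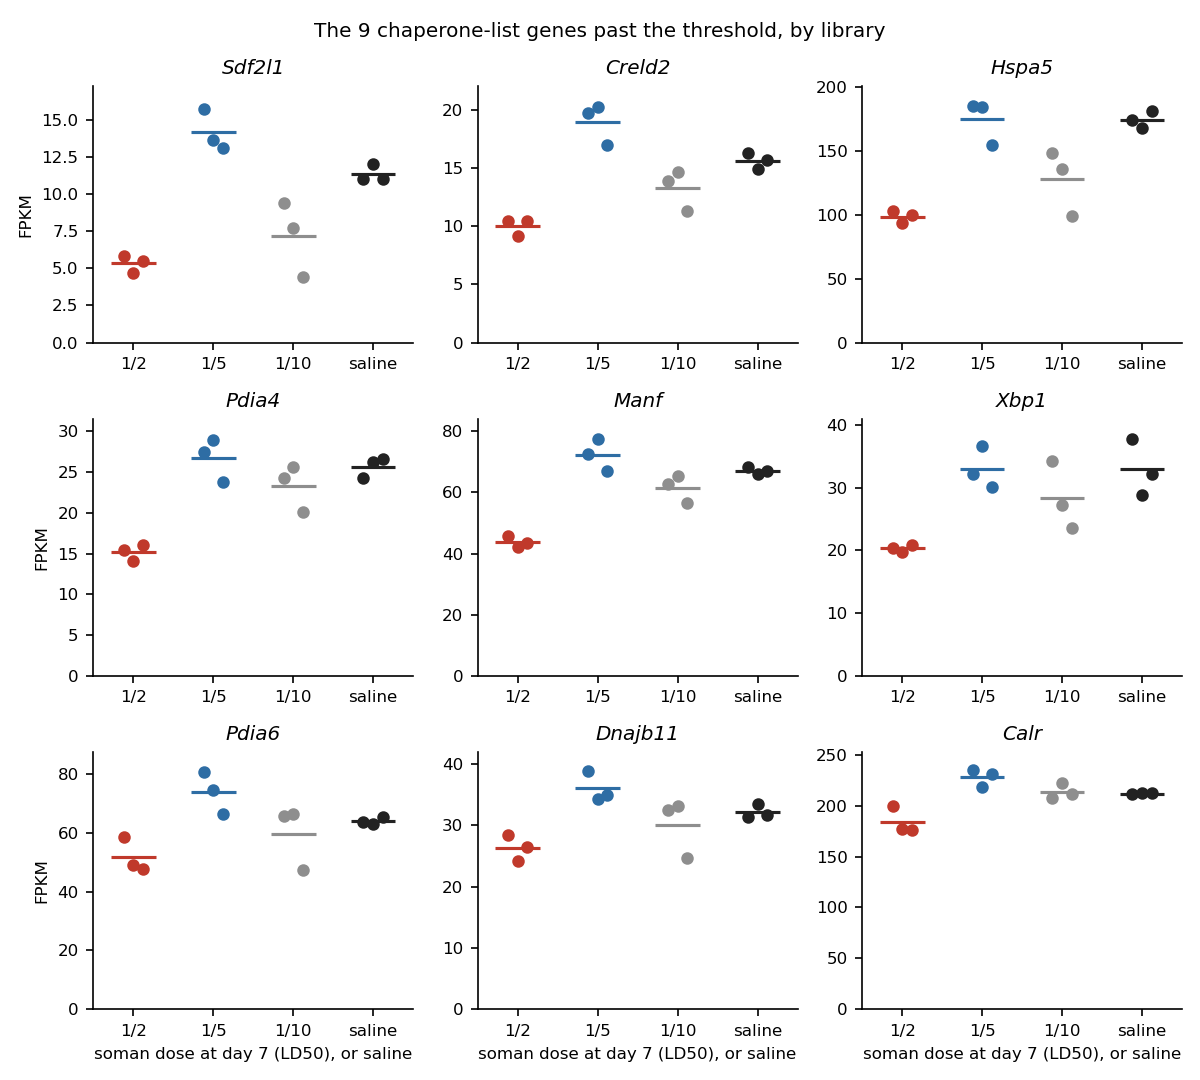
FPKM of the 9 chaperone-list genes past the threshold in each library of 1/2, 1/5 and 1/10 LD50 at day 7 and of saline, in order of log2 difference. Points are libraries and lines are group means (n = 3). In all 9 panels the 3 libraries of 1/2 LD50 lie below the 3 of 1/5 LD50.

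The list holds 24 genes, written from general knowledge with earlier results of these data known. Of these, 23 were tested (Trib3 was too low). Of the 23, 9 fell, 0 rose and 14 did not pass, and 16 had an unadjusted p below 0.05. Among all tested genes 0.102% fell, 0.0136% rose and 9.21% had an unadjusted p below 0.05. In 18 of the 23 every library of 1/2 LD50 lay below every library of 1/5 LD50, against 12.0% of all tested genes (1758). The median log2 difference of the list was -0.31 (range -1.26 to 0.01), and that of all tested genes -0.03. Among members that did not pass, Herpud1, which takes part in degrading misfolded proteins, was at 20.03, 19.97 and 23.8 FPKM at 1/2 LD50 and 28.1, 29.9 and 26.6 FPKM at 1/5 LD50 (log2 difference -0.39 ± 0.09, limma adjusted p = 0.0722). Ddit3 (CHOP), a factor of stress-induced cell death, was at 16.1, 14.2 and 13.8 FPKM at 1/2 LD50 and 20.8, 21.6 and 19.97 FPKM at 1/5 LD50 (-0.47 ± 0.14, limma adjusted p = 0.236). Hsp90b1 (GRP94), the Hsp90 of the endoplasmic reticulum, was at 151.7, 143.3 and 143.3 FPKM at 1/2 LD50 and 181.7, 173.1 and 169.2 FPKM at 1/5 LD50 (-0.26 ± 0.07, limma adjusted p = 0.192). In these 3 genes the groups did not overlap. The groups lay close together in Canx, the membrane-bound relative of calreticulin, at 84.2, 79.7 and 83.8 FPKM at 1/2 LD50 and 88.6, 84.4 and 87.4 FPKM at 1/5 LD50. They overlapped in Sel1l, a subunit of the complex that exports proteins for degradation, with a log2 difference of 0.01 ± 0.07.

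The summed FPKM of the 24 list genes was 1055, 963.0 and 988.0 in the libraries of 1/2 LD50 and 1345, 1330 and 1246 in those of 1/5 LD50. Replicate 1 of 1/2 LD50, which lacks cerebellar transcripts, was thus the highest of its dose. Without it 9 members still fell, the list median was -0.34, and the log2 differences were -0.85 for Hspa5, -0.78 for Pdia4, -0.89 for Creld2 and -1.32 for Sdf2l1.

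The promoters of 4 of the fallen members are shown because each holds, within 250 bases before its start site, the endoplasmic reticulum stress element, a motif known to be bound by NF-Y together with Atf6 or Xbp1. The letters searched were CCAAT, any 9 bases and then CCACG, on both strands, in windows from 250 bases before to 50 bases after each start in RefSeq (GRCm38.p6). The sequences are the 250 bases before the start, 5′ to 3′ on the gene's strand, with the match in capitals, which reads as the reverse complement in Creld2 and Calr. They lie at chr2:34771840-34772089 on the plus strand (Hspa5), chr12:17266339-17266588 on the plus strand (Pdia6), chr15:88819396-88819645 on the plus strand (Creld2) and chr8:84846932-84847181 on the minus strand (Calr).
Hspa5: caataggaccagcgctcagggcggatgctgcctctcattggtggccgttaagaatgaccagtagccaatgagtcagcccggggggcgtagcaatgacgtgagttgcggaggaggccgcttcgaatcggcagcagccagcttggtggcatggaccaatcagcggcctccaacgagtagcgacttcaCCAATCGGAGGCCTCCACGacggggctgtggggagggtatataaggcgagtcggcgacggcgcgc
Pdia6: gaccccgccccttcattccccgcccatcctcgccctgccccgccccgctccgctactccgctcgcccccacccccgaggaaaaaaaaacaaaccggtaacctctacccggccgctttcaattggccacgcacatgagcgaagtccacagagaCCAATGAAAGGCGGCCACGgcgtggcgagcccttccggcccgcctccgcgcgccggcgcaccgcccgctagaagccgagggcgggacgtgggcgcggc
Creld2: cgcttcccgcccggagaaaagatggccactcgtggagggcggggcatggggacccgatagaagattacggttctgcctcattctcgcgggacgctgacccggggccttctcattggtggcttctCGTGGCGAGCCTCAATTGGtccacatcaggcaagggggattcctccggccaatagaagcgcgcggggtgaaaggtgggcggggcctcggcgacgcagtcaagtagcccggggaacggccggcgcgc
Calr: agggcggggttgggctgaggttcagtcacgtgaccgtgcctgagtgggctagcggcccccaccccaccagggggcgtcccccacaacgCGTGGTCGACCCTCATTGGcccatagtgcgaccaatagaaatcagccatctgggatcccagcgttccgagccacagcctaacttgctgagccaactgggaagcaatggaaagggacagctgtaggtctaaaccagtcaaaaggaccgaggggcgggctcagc
The match ends 46 bases before the start in Hspa5, 79 in Pdia6, 107 in Creld2 and 143 in Calr. It was found in 9 of the 20 list members that have a window (45.0%), and in 4 of the 8 fallen members that have one, while 39 of all 32851 windows hold it (0.119%). It was also found in members that did not pass, among them Canx, Dnajc3 and Hsp90b1, so that the letters did not separate fallen from other members. A match describes the sequence alone.

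Set beside saline, the 1/5 LD50 group was the one near the control level and the 1/2 LD50 group the one below it. Hspa5 averaged 98.7 ± 4.81 FPKM at 1/2 LD50, 174.9 ± 17.1 at 1/5 LD50, 128.1 ± 25.7 at 1/10 LD50 and 174.7 ± 6.69 in saline (SD, n = 3 each). Of the 23 tested list genes 15 fell and 0 rose at 1/2 LD50 against saline, where 8.39% of all tested genes were called, 6.68% fallen (982 genes) and 1.71% risen, and the median log2 difference was -0.32. At 1/5 LD50 against saline 1 fell (Sel1l, -0.33, limma adjusted p = 0.00187) and 1 rose (Atf4, 0.28, limma adjusted p = 0.0138), where 8.87% of all tested genes fell and 6.49% rose, and the median was 0.04. Both comparisons use the same 3 saline libraries. The mean of 1/10 LD50 lay between those of the 2 higher doses for Hspa5, with 148.8, 136.1 and 99.3 FPKM in its libraries, the last within the range of 1/2 LD50. Against 1/10 LD50, 11 list genes fell and 0 rose at 1/2 LD50, where 4.11% of all tested genes fell and 13.6% rose. At 1/5 LD50 against 1/10 LD50, 9 list genes rose (21.8% of all tested genes). Dnajb9, a co-chaperone, fell there (-0.21, limma adjusted p = 0.0402, with 5.74% of all fallen). Replicates 2 and 3 of 1/10 LD50 had mitochondrial shares of 20.8% and 24.7%, and these comparisons again share libraries.

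Of the 23 tested list genes, 9 passed the test between the doses at day 7 and 0 at each of the other days. Hspa5 averaged 111.4 FPKM at 1/2 LD50 and 120.6 at 1/5 LD50 at day 1, 92.5 and 89.2 at day 3, 98.7 and 174.9 at day 7, and 177.4 and 170.0 at day 14. Both doses were thus low at days 1 and 3 and both near the saline level at day 14, and at day 7 the 1/2 LD50 group had the level of day 3 and the 1/5 LD50 group that of day 14. The summed FPKM of the list had the same shape, with 1027 ± 47.7 at 1/2 LD50 and 1037 ± 63.6 at 1/5 LD50 at day 1, 961.8 ± 68.7 and 985.7 ± 21.9 at day 3, 1002 ± 47.7 and 1307 ± 53.4 at day 7, and 1242 ± 49.2 and 1252 ± 49.1 at day 14 (SD, n = 3 each). Of the 23 list genes, 0 passed the limma test of 1/2 against 1/5 LD50 at day 1 (2 at an unadjusted p below 0.05), 0 at day 3 (0 unadjusted) and 0 at day 14 (2 unadjusted). Over all genes the same tests called 7 at day 1 (0.0476%, with 0.0408% risen and 0.00680% fallen), 0 at day 3 (610 at an unadjusted p below 0.05, 4.15%) and 6 at day 14 (0.0408%, all fallen). At 1/10 LD50, which these tests leave out, the summed FPKM of the list averaged 856.0, 1046, 1183 and 1267 at days 1, 3, 7 and 14. At day 7 that sum lay between those of 1/2 and 1/5 LD50, so that the levels did not follow the order of the doses. The labels give no batch, and each day and dose is its own set of libraries.

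**Figure D4:**
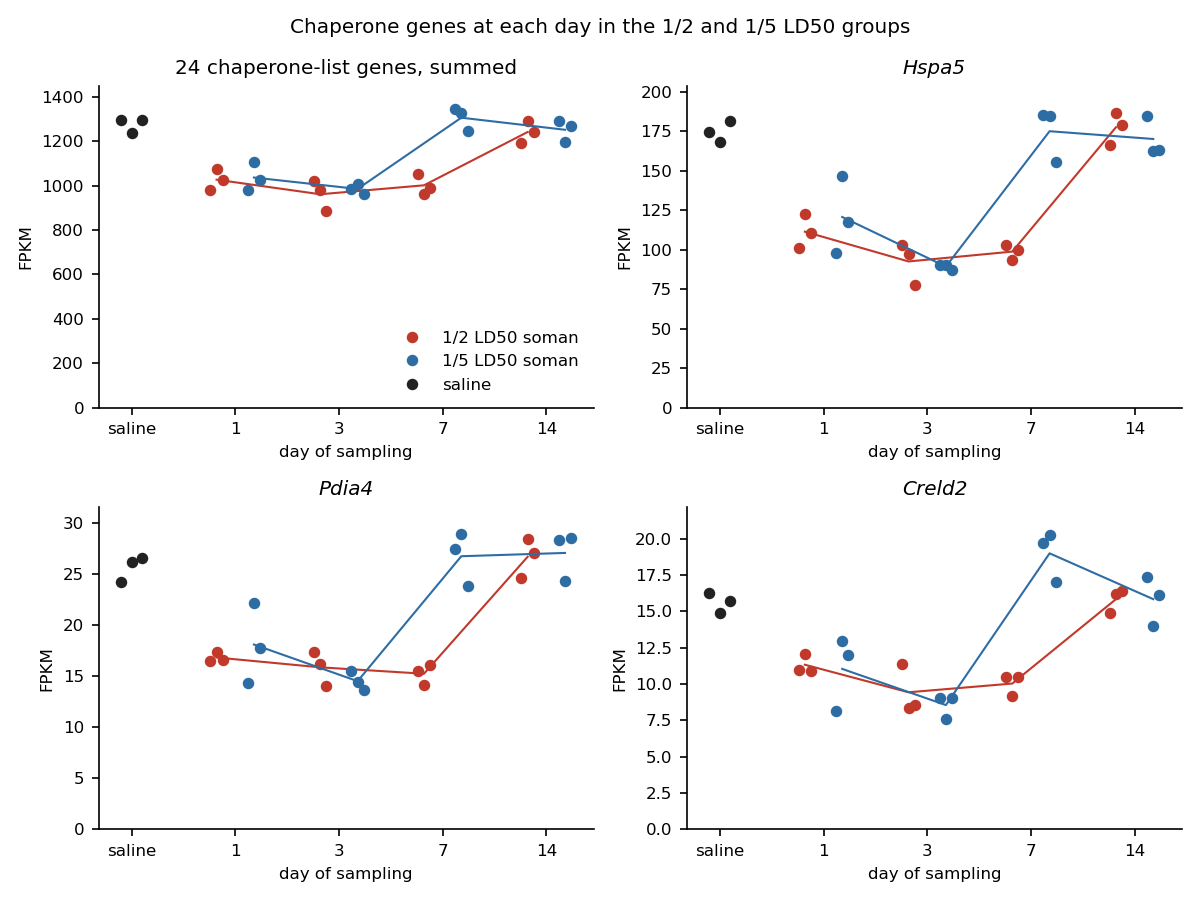
Summed FPKM of the 24 chaperone-list genes and FPKM of Hspa5, Pdia4 and Creld2 (y axes) at days 1, 3, 7 and 14 in the 1/2 and 1/5 LD50 groups, with saline at the left. Points are libraries and lines join group means (n = 3). The groups part at day 7, where Hspa5 averages 98.7 FPKM at 1/2 LD50 and 174.9 FPKM at 1/5 LD50, and meet again at day 14.

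A test of that difference in dose effect, day 7 minus the mean of days 1, 3 and 14, called 10 genes (0.0680%, with 9.82% at an unadjusted p below 0.05), of which 3 were higher at day 7 (0.0204%) and 7 lower (0.0476%). Of these 7, 5 were on the chaperone list. The value of this contrast was -0.82 ± 0.14 for Hspa5 (SE, limma adjusted p = 0.00832), -0.78 ± 0.12 for Pdia4 (0.00294) and -0.92 ± 0.15 for Creld2 (0.00294). It was -0.65 ± 0.12 for Manf (0.0114) and -0.64 ± 0.13 for Xbp1 (0.0387). These values kept their direction under all 34 alternatives tried. However, Xbp1 was called in only 12 of them, Manf lost its call in 7 and Hspa5 in 3. Without the 3 libraries of lowest Pcp2 the limma adjusted p was 0.0559 for Manf and 0.108 for Xbp1. Sdf2l1 had a value of -1.15 ± 0.24 and just missed the threshold (limma adjusted p = 0.0514). Over the 23 genes the median was -0.30, against -0.04 for all tested genes.

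Per2, a repressor of the circadian clock, was the only called gene of the clock list. It was at 4.98, 4.88 and 4.27 FPKM at 1/2 LD50 and 7.44, 11.0 and 7.59 FPKM at 1/5 LD50, with no overlap, and replicate 2 of 1/5 LD50 stood highest. The log2 difference was -0.74 ± 0.12 (limma adjusted p = 0.00254). In saline Per2 averaged 8.26 ± 0.298 FPKM. The other 18 tested clock genes did not pass, and 5 of the 19 had an unadjusted p below 0.05 (9.21% of all tested genes). Dbp, a clock-driven transcription factor, was at 36.5, 31.2 and 29.1 FPKM at 1/2 LD50 and 36.8, 57.1 and 43.7 FPKM at 1/5 LD50 (-0.48 ± 0.13, limma adjusted p = 0.209). Replicate 2 of 1/5 LD50 was again the highest. Cry1, a partner of Per2 in repression, was at 5.22, 6.49 and 6.28 FPKM at 1/2 LD50 and 8.04, 9.67 and 8.43 FPKM at 1/5 LD50 (-0.47 ± 0.18, limma adjusted p = 0.402). Bhlhe41, another repressor, gave -0.23 ± 0.09 (limma adjusted p = 0.438). Arntl (Bmal1), which activates Per2, overlapped between the doses at 11.0, 9.31 and 8.84 FPKM at 1/2 LD50 and 9.47, 7.91 and 9.47 FPKM at 1/5 LD50. The median log2 difference of the clock list was -0.04. At day 14 Dbp was lower at 1/2 than at 1/5 LD50 (20.8 against 39.5 FPKM on average, log2 difference -0.90, limma adjusted p = 0.00169), while Per2 was not called there (-0.42, limma adjusted p = 0.458).

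Of the remaining genes that fell, P4ha1, the catalytic subunit of the prolyl hydroxylase that matures collagen in the endoplasmic reticulum, was at 13.5, 13.2 and 13.5 FPKM at 1/2 LD50 and 16.5, 18.8 and 17.1 FPKM at 1/5 LD50 (log2 difference -0.35 ± 0.07, limma adjusted p = 0.0116). It is not on the chaperone list. Zc3h11a, a zinc finger protein of messenger RNA export, was at 26.5, 27.7 and 26.4 FPKM at 1/2 LD50 and 31.7, 32.4 and 34.8 FPKM at 1/5 LD50 (-0.28 ± 0.06, limma adjusted p = 0.0250). It shares exonic sequence with Zbed6 on the same strand, so that its level is uncertain. Zbtb40, a zinc finger protein with a BTB domain, was at 1.37, 1.88 and 2.06 FPKM at 1/2 LD50 and 3.04, 3.25 and 2.97 FPKM at 1/5 LD50 (-0.57 ± 0.12, limma adjusted p = 0.0335). Dok3, an adaptor of immune cell signalling, was at 2.51, 2.59 and 2.02 FPKM at 1/2 LD50 and 3.30, 3.78 and 4.24 FPKM at 1/5 LD50 (-0.50 ± 0.10, limma adjusted p = 0.0335). In all 4 genes the groups did not overlap. Against saline P4ha1 (-0.25, limma adjusted p = 0.0147) and Zbtb40 (-0.70, 0.000412) were lower at 1/2 LD50, whereas Dok3 (0.38, 0.0117) and Zc3h11a (0.16, 0.0499) were higher at 1/5 LD50. Insl5, an insulin-like peptide hormone of the gut, was below the level of 2 FPKM required for naming and was named after its values were seen. It was at 0.0695, 0.0308 and 0.0838 FPKM at 1/2 LD50 and 0.710, 1.38 and 1.28 FPKM at 1/5 LD50 (-0.98 ± 0.16, limma adjusted p = 0.00254), and at 0.578, 0.894 and 0.448 FPKM in saline, against which it was lower at 1/2 LD50 (-0.62, limma adjusted p = 0.0178).

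The 2 genes that rose were a ubiquitin ligase and a kinase. Hecw2, the ligase, was at 4.53, 5.22 and 4.24 FPKM at 1/2 LD50 and 3.01, 3.19 and 3.16 FPKM at 1/5 LD50, a log2 difference of 0.46 ± 0.07 (limma adjusted p = 0.00149). Against saline, where it was at 4.40, 4.72 and 4.70 FPKM, it differed by 0.01 at 1/2 LD50 (limma adjusted p = 0.948) and by -0.44 at 1/5 LD50 (limma adjusted p = 8.76e-05). Pak5, a p21-activated kinase of neurons, was at 8.42, 8.46 and 7.51 FPKM at 1/2 LD50 and 6.37, 5.28 and 5.98 FPKM at 1/5 LD50. No library of 1/2 LD50 lay below one of 1/5 LD50, and the log2 difference was 0.41 ± 0.09 (limma adjusted p = 0.0369). Pak5 passed against saline at neither dose, with 0.20 at 1/2 LD50 and -0.21 at 1/5 LD50 (limma adjusted p = 0.146 and 0.0926).

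Single libraries mattered for many of these calls, although all 17 genes kept their direction without each of the 6 libraries. Sdf2l1, Hspa5, Pdia4, Creld2, Manf and Hecw2 were called with each of the 6 left out in turn (highest limma adjusted p 0.0335). Leaving out replicate 2 of 1/5 LD50, 10 of the 17 were lost (8 genes called in all), namely Xbp1, Calr, Insl5, Per2, Zc3h11a, Dok3, P4ha1, Pdia6, Zbtb40 and Pak5 (limma adjusted p 0.0599 to 0.224). Without replicate 2 of 1/2 LD50, 8 were lost (10 called), namely Zc3h11a, Dok3, P4ha1, Zbtb40, Dnajb11, Pdia6, Calr and Pak5 (0.0554 to 0.225). Without replicate 1 of 1/2 LD50, 4 were lost (Dok3, Zc3h11a, Pak5 and Zbtb40, 0.0645 to 0.194), and without its replicate 3, 5 were (Dnajb11, Zc3h11a, Calr, Pdia6 and Dok3, 0.0610 to 0.304). Without replicate 1 of 1/5 LD50, 4 were lost (Zbtb40, Dnajb11, Calr and Pdia6, 0.110 to 0.233), and without its replicate 3, 5 were (Zbtb40, Pak5, Calr, Zc3h11a and Dok3, 0.0981 to 0.301). These 6 fits called 6 to 9 chaperones as fallen. With the spread taken from the 6 libraries alone, 5 genes were called, of which only 3 were among the 17 (the chaperones Sdf2l1, Creld2 and Manf). The other 14 of the 17 lost their call, with limma adjusted p of 0.0508 for Hspa5, 0.0657 for Pdia4 and 0.37 for Hecw2.

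Most other gene groups held no called gene. Of 53 lists of cell types, brain regions and pathways with at least 5 tested members, 51 had no called member. Over all tested genes 0.116% were called, and at that share no call is the usual outcome for a list of such size. The heat shock proteins of the cytosol, which fold proteins outside the endoplasmic reticulum, had 0 of 19 called. At an unadjusted p below 0.05 stood 8 of them (9.21% of all tested genes), and the median log2 difference was -0.15. In 9 of 19 every library of 1/2 LD50 lay below every library of 1/5 LD50 (12.0% of all genes). Hspb1, a small heat shock protein, was at 4.72, 5.26 and 7.196 FPKM at 1/2 LD50 and 8.06, 12.0 and 10.6 FPKM at 1/5 LD50 (-0.74 ± 0.20, limma adjusted p = 0.185). Subunits of the respiratory chain encoded in the nucleus had log2 differences below 0 in 47 of 47 genes (60.1% of all tested genes), with a median of -0.17. In 27 of them the groups did not overlap (12.0% of all tested genes were lower without overlap). Ndufa4, one of them, was at 348.7, 362.3 and 348.6 FPKM at 1/2 LD50 and 420.8, 394.1 and 467.5 FPKM at 1/5 LD50 (-0.27 ± 0.08, limma adjusted p = 0.233). After removal of the trend on transcript length within each library, the median of that list was -0.08. Cytosolic ribosomal proteins had a median of -0.17 and 13 of 46 genes lower without overlap, subunits of the proteasome and ubiquitin -0.13 and 13 of 28 (12.0% of all tested genes). Over the 14 alternatives tried for this comparison the ribosomal median ran from -0.22 to -0.068. That of the proteasome and ubiquitin ran from -0.19 to -0.049.

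Lists with a median above 0, none with a called gene, included the mitochondrial genome (0.22, 12 of 13 genes above 0), voltage-gated ion channels, pericytes and smooth muscle (0.13) and cholesterol synthesis. The 20 cholesterol genes had a median log2 difference of 0.11, with 5 at an unadjusted p below 0.05 (9.21% of all genes). In 7 of them every library of 1/2 LD50 lay above every library of 1/5 LD50 (5.50% of all genes). The 35 ion channel genes had a median of 0.14, with 11 at an unadjusted p below 0.05 and 7 above without overlap (9.21% and 5.50% of all genes). Scn1a, a sodium channel, was at 13.9, 17.8 and 20.3 FPKM at 1/2 LD50 and 14.1, 13.8 and 14.6 FPKM at 1/5 LD50, so that its doses overlapped. The members named from the lists without a call are among those of smallest p in each.

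**Figure D5:**
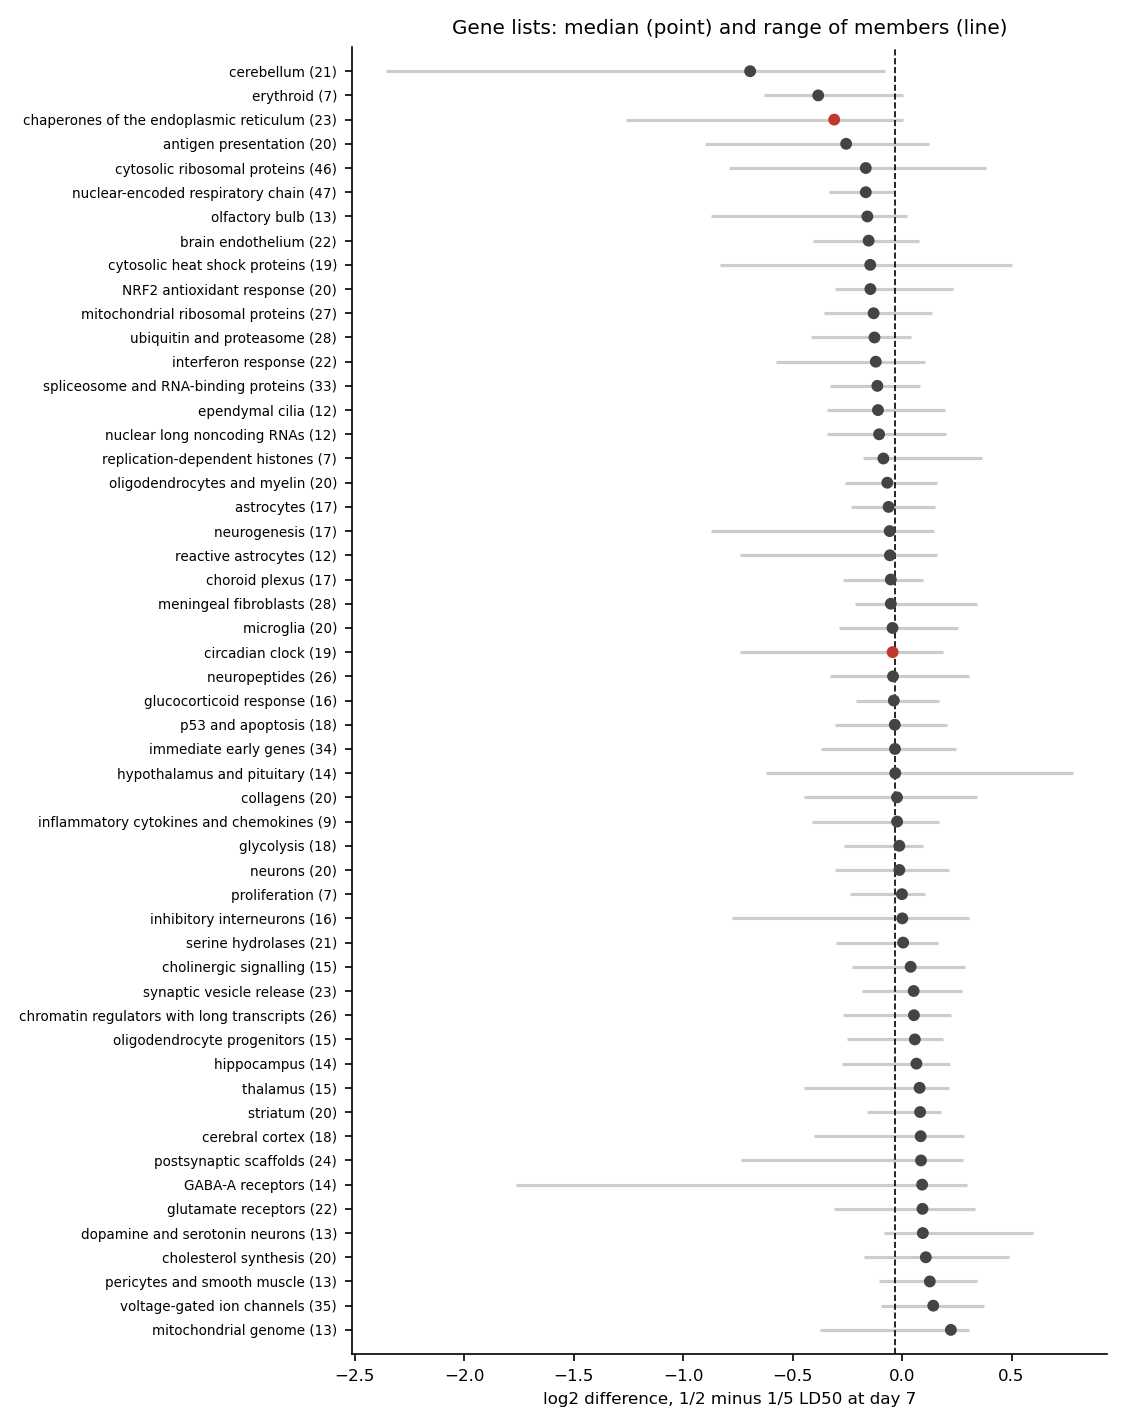
Median (point) and range (line) of the log2 difference, 1/2 minus 1/5 LD50 at day 7, over the tested members of each of the 53 gene lists with at least 5 of them (number in brackets). Red points mark the 2 lists with a called gene, and the dashed line is the median of all tested genes. The chaperone list, at -0.31, lies just below the cerebellar and erythroid lists at the top, neither of which has a called member.

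Lists of cells and regions that differ between whole-brain samples showed where libraries differed. The cerebellar list had the lowest median, -0.69, with 0 of 21 called (0.116% of all tested genes) and 2 lower without overlap (12.0% of all tested genes). Without replicate 1 of 1/2 LD50 the cerebellar median was -0.17. Erythroid genes, which come from blood in the tissue, summed to 989.3, 1170 and 823.1 FPKM at 1/2 LD50 and 972.1, 1461 and 1577 FPKM at 1/5 LD50 (median log2 difference -0.38, 0 of 7 called). Genes of antigen presentation, the display of peptides to T cells, summed to 103.7, 104.2 and 119.6 FPKM at 1/2 LD50 and 111.6, 137.6 and 232.3 FPKM at 1/5 LD50, where replicate 3 stood alone (-0.26, 0 of 20). Immediate early genes, the first that active neurons induce, had a median of -0.03 with 0 of 34 called, and meningeal fibroblast genes -0.05 with 0 of 28. With 0.116% of all tested genes called, counts of 0 in lists of these sizes say little about their members.

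The genes around acetylcholine did not pass. Ache, which encodes the enzyme that soman blocks, was at 32.5, 27.99 and 39.9 FPKM at 1/2 LD50 and 32.2, 38.6 and 33.1 FPKM at 1/5 LD50. The groups overlapped, with a log2 difference of -0.06 ± 0.13 (limma adjusted p = 0.919) whose sign depended on the library left out. Bche, the butyrylcholinesterase gene, gave -0.04 ± 0.13 (limma adjusted p = 0.938), and Chat, the gene for the acetylcholine-making enzyme, 0.06 ± 0.17 (limma adjusted p = 0.939), and both also changed sign with a library left out. Of 15 tested genes of cholinergic signalling 0 were called (0.116% of all tested genes) and 2 had an unadjusted p below 0.05 (9.21% of all tested genes). Both counts are near what those shares give for 15 genes, and so are no result about this pathway. The median of the list was 0.04.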

How the data were processed

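Brain RNA of these mice was extracted with Trizol, purified on poly(dT) beads and converted to cDNA, per the labels' protocols. HISAT2 was the aligner, per the submitters' processing notes, which list a human build, GRCh38, for mouse reads. No coordinates of the files were therefore used. The deposited values are FPKM, made by the authors with a program not given in the sources used here, in 1 table of 47561 genes and 39 libraries. The depth of the libraries, and so the counting precision, is unknown.

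The 14701 genes that reached 1 FPKM in 3 or more libraries were tested as log2(FPKM + 1) in 1 model of 13 groups with limma 3.58.1 (R 4.3.3, lmFit, eBayes with trend). Benjamini-Hochberg adjustment ran over all of them, with a threshold of 0.05. This scale understates the change of low genes, and the spread is shared by all 39 libraries. Named genes are at most 14 rises and 14 falls past the threshold and 6 genes for day 7 against the other days, all with a mean of 2 FPKM or more. To these come the 4 members of lowest p in each list with a call, and Ache, Bche and Chat. Other list members named were chosen after their values were seen. The members, lists and tests were chosen with earlier results of these data known.

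Promoters are from RefSeq (GRCm38.p6), and gene overlaps and lengths from GENCODE vM21. The alternatives changed the pseudocount (to 0.1), the filter (none), the scaling (median ratio), the model (6 libraries, or a replicate block) and the trend on transcript length (removed), or left out each library. Leaving out the 3 libraries with Pcp2 below 1 FPKM was added after the data were seen. The code was tested on simulated data.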

Additional observations from a re-analysis of the deposited data

Results flagged for a closer look

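For 10 genes the difference between 1/2 and 1/5 LD50 at day 7 was unlike the mean of the same difference at days 1, 3 and 14, by the limma test of that contrast (adjusted p below 0.05). Among the chaperone genes the value (day 7 minus the other days, log2) was -0.82 for Hspa5, -0.78 for Pdia4, -0.92 for Creld2, -0.65 for Manf and -0.64 for Xbp1. Zc3h11a gave -0.38 ± 0.06 (SE, limma adjusted p = 0.00613) and Insl5 -1.09 ± 0.19 (limma adjusted p = 0.00718). Insl5 met the filter for testing partly through the 1/5 LD50 group at day 7, where it is high, so that its call carries that limit. On the other side stood Hecw2 with 0.54 ± 0.08 (limma adjusted p = 0.00294), Pak5 with 0.57 ± 0.10 (limma adjusted p = 0.00718) and Fmn1, a formin of the actin skeleton, with 0.41 ± 0.08 (limma adjusted p = 0.0218). Fmn1 is below 2 FPKM in both groups and was named after its values were seen. It was at 1.40, 1.68 and 1.63 FPKM at 1/2 LD50 and 1.04, 1.17 and 1.19 FPKM at 1/5 LD50. It did not pass at day 7 alone (log2 difference 0.27, limma adjusted p = 0.176). Without replicate 2 of 1/2 LD50 at day 7 Insl5, Pak5, Hspa5, Manf, Fmn1 and Xbp1 were lost (limma adjusted p 0.0600 to 0.194), and without replicate 2 of 1/5 LD50 the same 6 were (0.0707 to 0.208). Without replicate 1 of 1/5 LD50 Manf, Hspa5, Xbp1 and Fmn1 were lost (0.0562 to 0.127), without replicate 3 of 1/2 LD50 Manf, Xbp1 and Fmn1 (0.0525 to 0.113) and without its replicate 1 Xbp1 (0.0844). Without the 3 libraries of lowest Pcp2 Manf, Pak5 and Xbp1 were lost (0.0559 to 0.108), without day 3 Zc3h11a, Manf and Xbp1 (0.0567 to 0.266), and with only the 24 libraries of both doses Pak5, Fmn1 and Manf (0.0508 to 0.0683). Xbp1 lost its call under 22 of the 34 alternatives, among them no filter (0.114) and the replicate block (0.0510). Hecw2, Creld2 and Pdia4 were called under each of the 34 alternatives of this contrast. With 3 libraries a group, no formal test for single outlying samples was run.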

How the results depend on the processing

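The count of 17 genes between the doses, with 9 chaperones fallen, was 17 and 9 with a pseudocount of 0.1, 16 and 8 without the filter or with median-ratio scaling, 23 and 8 with the length trend removed, and 16 and 9 without the 3 libraries of lowest Pcp2, an alternative added after the data were seen. With only the 6 libraries in the model the counts were 5 and 3, since the spread then rests on 4 residual degrees of freedom. Leaving out 1 library gave 8 to 17 genes and 6 to 9 chaperones. The contrast of day 7 with the other days called 10 genes, and 4 to 14 with 1 library left out, 9 without the filter, 12 with median-ratio scaling and 7 without day 3 or without the 3 libraries. Same-numbered libraries of the doses deviated together with correlations of 0.00, -0.18 and 0.12, which did not show that the numbers pair the samples. As deviations from means of 3 libraries, these values cannot exclude a pairing. With a replicate block 13 genes and 8 chaperones were called, and with the block on the 6 libraries alone 0 and 0 (1290 at an unadjusted p below 0.05 in limma). Among the named genes recomputed under these alternatives (those named by the rule, Insl5 and Fmn1), signs turned in Ache, Bche and Chat, which did not pass, and in no other. With 1 library left out Ache ran from -0.19 to 0.060, Bche from -0.12 to 0.065 and Chat from -0.11 to 0.19, and Bche was 0.065 without the 3 libraries. The causes were not tested. Without read counts the depth behind low genes such as Insl5 is unknown, and 3 libraries a group limit what can be called.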
